A study of Homo sapiens with 18 samples.

Results

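Potassium channel genes were taken as the autosomal protein-coding genes whose symbol begins with KCN and continues with a subfamily letter code and a number. The rule found 93 of the 19126 autosomal protein-coding genes in the RefSeq table of GRCh38.p14, and 2 further genes with such symbols on chromosome X stayed outside it. Their chromatin was described by immunoprecipitation and sequencing of H3K9me3 and H3K27me3 in U937 cells, an established line from a human myeloid leukaemia, from which all groups derive. The sgControl cells carried a control guide, SKO cells were knocked out for SUV39H1, and DKO cells were knocked out for SUV39H1 and SUV39H2, with 2 libraries per genotype and mark. SUV39H1 and SUV39H2 are enzymes that methylate lysine 9 of histone H3. Binding of SETDB1, another H3K9 methyltransferase, came from 2 wild-type libraries. The labels do not say whether a knockout is 1 clone or a pool, nor that replicates came from separate cultures, so every p-value below measures the spread between these libraries, which may be technical.

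Potassium channels let potassium ions leave or enter a cell, set the resting membrane potential and end electrical signals in nerve and muscle. Kv subunits open with voltage, inward rectifiers (KCNJ) and leak channels (KCNK) hold the resting potential, and a further set opens with intracellular calcium or sodium. Silent Kv subunits and accessory subunits form no channel alone and change how others gate or reach the membrane. H3K9me3 is a mark of heterochromatin and H3K27me3 is the mark set by Polycomb complexes, and both are found on genes that a cell type keeps silent.

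The measure was the percent of each gene body inside the broad domains that the authors called in each library. Loss or gain was called at a gene where the libraries of both genotypes did not overlap and their closest values were 25 or more percentage points apart. Domain edges lay on an 800 bp grid, so short genes can take few values. Reads inside domains numbered 16.2 M to 23.3 M for H3K9me3 and 45.5 M to 67.6 M for H3K27me3. On the autosomes, H3K9me3 covered 1013 ± 21.7 Mb in control cells and less in the knockouts, with 738 ± 1.10 Mb for SKO and 770 ± 3.78 Mb for DKO (SD, n = 2), so each list was also cut to an equal length by score and calls that this ended are named. H3K27me3 covered 1024 ± 3.54, 1138 ± 6.46 and 1136 ± 17.4 Mb. No library had either mark on 10 of 13 myeloid marker genes, 3 of 4 each for T cells, B cells and epithelial cells, 1 of 3 for erythroid cells and 0 of 4 for neurons.

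In control cells the potassium channel genes fell into marked and unmarked sets. H3K27me3 covered 39.6% ± 0.953 of the average member (SD, n = 2), against 15.0% ± 0.0414 over all genes. H3K9me3 covered 25.6% ± 0.594, against 17.1% ± 0.60. Neither mark was present in any library on 27 members (29.0%, all genes 52.9%). Among them were KCNA3 and KCNN4, the Kv1.3 and KCa3.1 channels known from lymphocytes and macrophages, KCNE3, KCNK6 and KCNAB2. Another 7 members held both marks over at least 75% of the body in all 12 libraries (7.53%, all genes 2.57%).

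Those 7 were KCNH1, KCNQ3, KCNJ6, KCND3, KCNIP3, KCNK1 and KCNS3. KCNH1, a Kv channel of brain, had 94.8% and 95.1% of its body in H3K9me3 domains in sgControl, 91.7% and 86.0% in SKO, and 90.6% and 90.4% in DKO. KCNQ3, a subunit of the neuronal M-current channel, stayed between 97.1% and 100% for H3K9me3 and at 100% for H3K27me3 in all 6 libraries of each mark. KCNJ6, a G-protein-gated inward rectifier, stayed between 93.3% and 100% for H3K9me3. KCNU1, a sperm channel gene, held H3K9me3 over 91.6% to 100% throughout. Its H3K27me3 was 58.4% and 78.3% in sgControl and 100% in all 4 knockout libraries. With KCNU1, 8 members held H3K9me3 over at least 75% in all 6 libraries (8.60%, all genes 5.48%), a choice that leaves little room for a call.

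**Figure D1:**
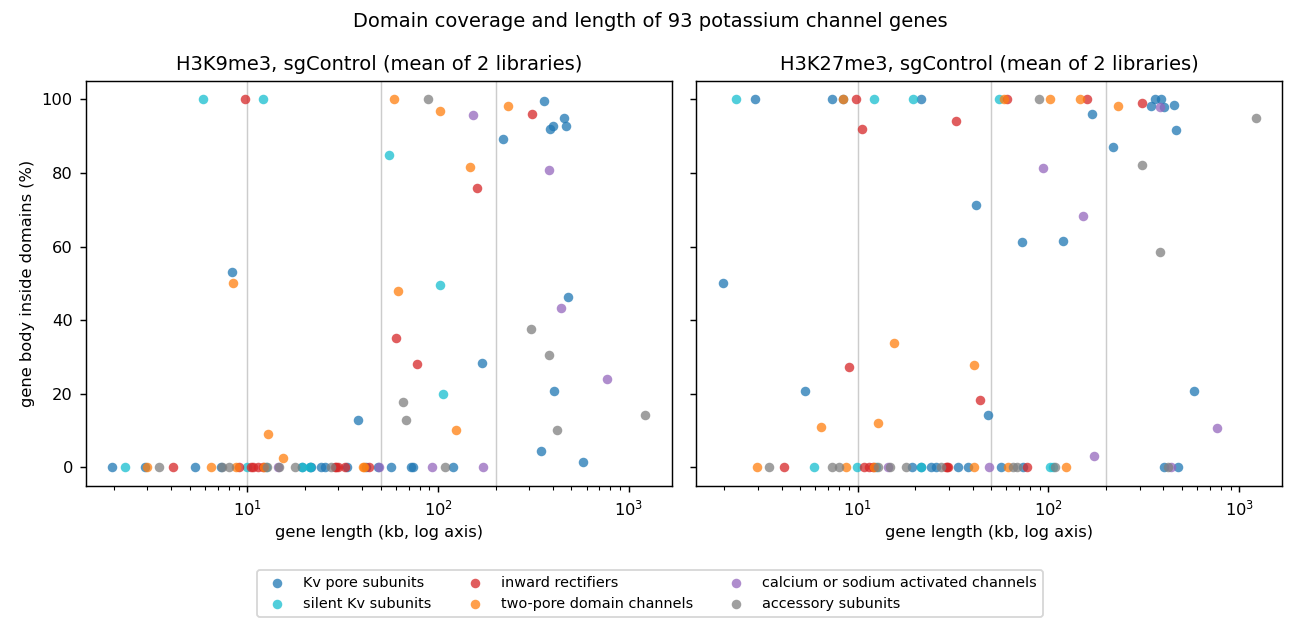
Percent of gene body inside H3K9me3 (left) and H3K27me3 (right) domains in sgControl, as the mean of 2 libraries, against gene length in kb on a log axis, with 1 point per potassium channel gene coloured by role and grey lines at 10, 50 and 200 kb. Nearly all members of 10 to 50 kb sit at 0 for H3K9me3 (29 of 33), and no member over 200 kb does.

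Coverage was highest in the longest genes but did not rise steadily with length. Length classes were split at 10, 50 and 200 kb. From the shortest class to the longest, members averaged 16.8%, 3.77%, 38.5% and 56.3% for H3K9me3 in sgControl. In the shortest class the 2 libraries had 11.4% and 22.2%. The H3K27me3 averages were 39.4%, 20.1%, 46.6% and 65.0%. Members had a median length of 40.7 kb against 24.5 kb for all genes, and 20.4% of them were longer than 200 kb against 7.01%. Across the 93 genes, Spearman's rank correlation between length and H3K9me3 in sgControl was 0.538, and across all 19126 genes it was 0.276. For H3K27me3 the values were 0.179 and 0.0939. These are descriptions across genes, which share libraries and are not independent replicates.

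Long potassium channel genes had higher averages of both marks in sgControl than long genes at large, a difference that was not tested. The 19 members over 200 kb had an average of 56.3% ± 1.06 in H3K9me3 in sgControl, 35.1% ± 0.763 in SKO and 39.0% ± 1.29 in DKO (SD, n = 2). The 1340 genes of that length had 39.3% ± 0.851, 29.4% ± 0.0117 and 30.6% ± 0.203. H3K27me3 on the long members was at 65.0% ± 0.421, 66.7% ± 0.150 and 66.5% ± 1.11, and on all genes of that length at 37.0% ± 0.122, 40.6% ± 0.180 and 40.7% ± 0.523. Members of 10 to 50 kb went the other way for H3K9me3, with 3.77% ± 0.0450 in sgControl, 8.53% ± 1.37 in SKO and 11.9% ± 0.208 in DKO. Of these 33 members, 29, 26 and 23 were at 0% in both libraries of the genotype. All 7787 genes of 10 to 50 kb also had more in the knockouts, with 13.4% ± 0.552, 14.6% ± 0.196 and 14.4% ± 0.287. The sgControl libraries overlapped neither knockout in these length classes. Over all 93 members mean H3K9me3 was 25.6% in sgControl, 19.7% in SKO and 24.6% in DKO, but with lists of equal covered length it was 19.2%, 19.6% and 23.0%, so the lower SKO mean was not kept. With 2 libraries a group the smallest exact two-sided p is 0.33, so no test of these means was made.

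The longest members did not all follow this pattern. KCNIP4, at 1220 kb the longest and the gene of a Kv4 accessory protein, held H3K27me3 over 95.5% and 94.3% in sgControl but H3K9me3 over only 9.05% and 19.5%. KCNMA1, the calcium-activated BK channel, had 26.0% and 22.1% H3K9me3 in sgControl and 1.25% to 7.91% in the knockouts. KCNQ5, another M-current subunit gene, held at most 9.85% H3K9me3 in any library. The shortest members differed as well: KCNF1 and KCNA5 held H3K27me3 over 100% in both sgControl libraries, while KCNA10 had 0% in one and 100% in the other.

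**Figure D2:**
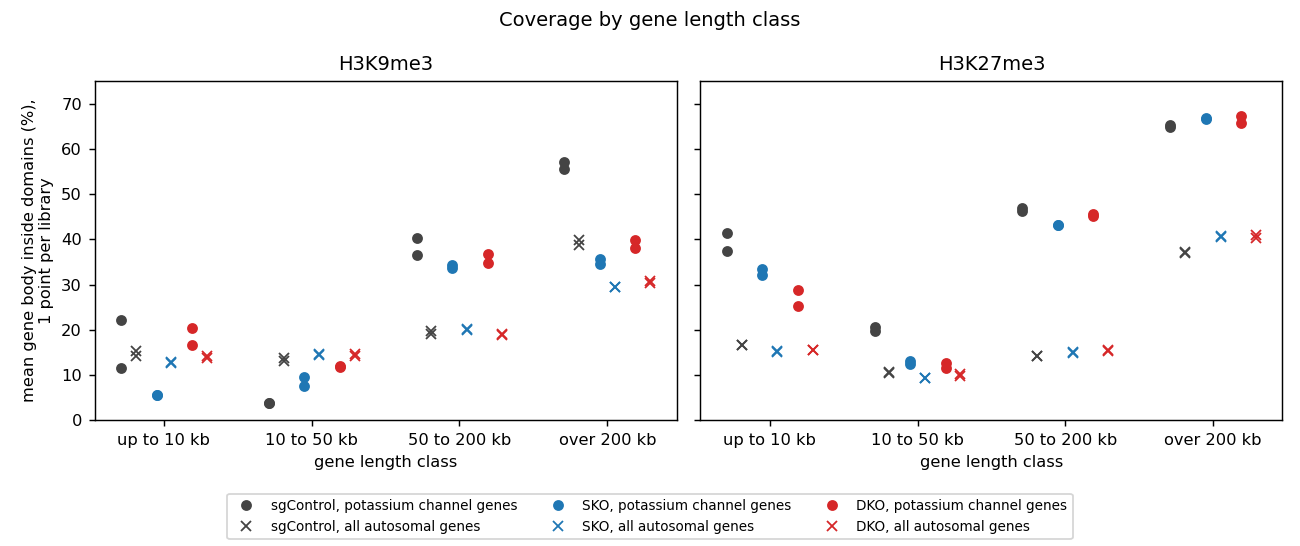
Mean percent of gene body inside domains by gene length class, for potassium channel genes (circles) and all autosomal protein-coding genes (crosses), with 1 symbol per library and colours for genotype. Over 200 kb the sgControl circles for H3K9me3 stand at 57.0 and 55.5 and those of SKO at 35.6 and 34.5, while the H3K27me3 circles of all 6 libraries lie between 64.7 and 67.3.

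Average coverage differed between the role groups, a difference that was not tested. In sgControl, average H3K9me3 was 35.4% ± 1.26 for silent Kv subunits (10 genes), 33.1% ± 5.04 for leak channels (15), 30.5% ± 2.15 for calcium or sodium activated channels (8), 25.1% ± 1.42 for Kv pore subunits (29), 21.0% ± 0.825 for inward rectifiers (16) and 14.9% ± 1.23 for accessory subunits (15). The neighbouring values of silent subunits and leak channels, and of leak and ion-activated channels, lay within their spread. In SKO the averages were 16.5% ± 0.361, 41.8% ± 2.06, 15.3% ± 0.686, 17.4% ± 0.568, 13.4% ± 0.238 and 12.9% ± 0.739. The leak channel average was higher in SKO than in sgControl, and in DKO it was 45.4% ± 1.44. The higher averages lay in the length classes up to 50 kb, which hold the chromosome 6 neighbours KCNK5, KCNK17 and KCNK16. The 5 of 50 to 200 kb averaged 67.3% in sgControl and 61.3% in SKO, and the 1 over 200 kb, KCNK2, 98.3% and 36.9%. H3K27me3 in sgControl ran from 50.7% ± 2.11 for Kv pore subunits to 22.4% ± 0.128 for accessory subunits. Within the Kv pore subunits, the 10 genes over 200 kb averaged 63.4% ± 0.0167 H3K9me3 and the 5 of 50 to 200 kb 5.68% ± 1.46.

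The first comparison asked where H3K9me3 lay without SUV39H1. In SKO, 10 of the 26 members that could lose the mark lost it and 3 of the 72 that could gain it did so. Of all genes that could be called, 24.3% lost and 4.77% gained, so by this rule gains among members were near the background. Without SKO replicate 2 the gains were 5. In DKO, 8 of 26 members lost the mark and 5 of 72 gained it, beside 23.0% and 4.35% of all genes. Without DKO replicate 1 or without sgControl replicate 2 the DKO gains were 8. Both comparisons used the same sgControl libraries. At equal covered length SKO lost the mark on 7 members and gained it on 6, and DKO lost it on 4 and gained it on 7. No share over all genes is given at that setting, so these counts are not compared with a background. Of the 52 members that varied, limma called 17 lost and 5 gained in SKO and 13 and 5 in DKO. Of all varying genes it called 13.4% lost and 18.3% gained in SKO, and 13.1% and 14.8% in DKO. All calls of named members against sgControl also passed limma at an adjusted p of 0.05 (45 of 45 over both marks).

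**Figure D3:**
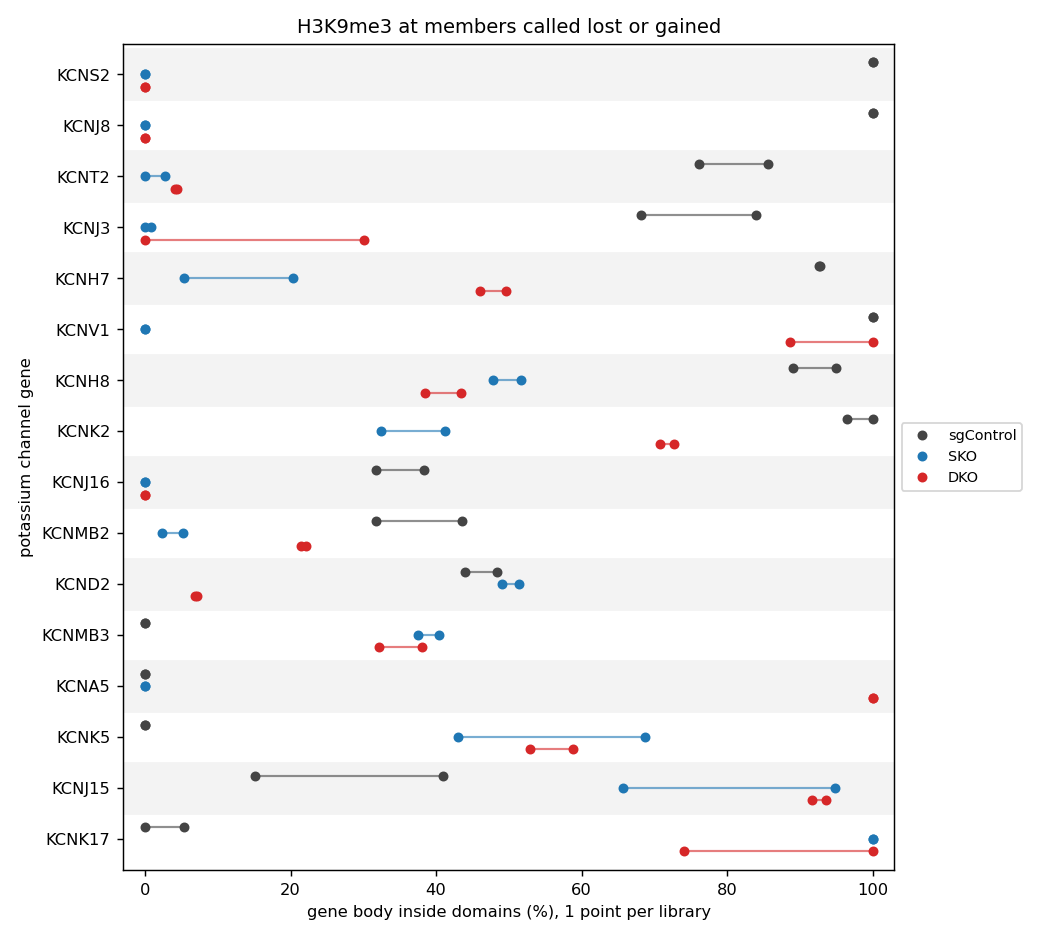
Percent of gene body inside H3K9me3 domains for the potassium channel genes called lost or gained in SKO or DKO, with 1 point per library and a line joining the 2 libraries of a genotype. KCNS2, KCNJ8 and KCNT2 separate sgControl from both knockouts, KCNV1 and KCNK2 lose the mark in SKO with DKO above SKO, and KCND2 is low in DKO alone.

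Among the Kv pore subunits, KCNH7 and KCNH8 lost H3K9me3 in both knockouts. KCNH7, an Erg-type channel gene of 467 kb on chromosome 2 (162371407 to 162838767), had 92.8% and 92.6% in sgControl, 20.3% and 5.31% in SKO, and 46.0% and 49.6% in DKO. The difference of SKO from sgControl was -79.9 points with an SE of 5.74 (limma, adjusted p = 0.0033). KCNH8, an Elk-type channel gene, had 89.0% and 95.0%, then 47.8% and 51.7%, then 43.4% and 38.4%. The sgControl libraries lay apart from both knockouts at both genes. H3K27me3 covered at least 89.9% of KCNH7 and 100% of KCNH8 in every library.

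KCND2 encodes Kv4.2, a channel of fast transient currents in neurons and heart, and spans 477 kb on chromosome 7 (120272908 to 120750337). It had 44.0% and 48.4% H3K9me3 in sgControl, 49.1% and 51.4% in SKO, and 7.21% and 6.87% in DKO. DKO stood apart from the other 4 libraries, by -39.2 points from sgControl (SE 2.1, limma, adjusted p = 0.00165). H3K9me3 on the whole of chromosome 7 covered 25.2 ± 0.157 Mb in DKO, 58.2 ± 0.197 Mb in SKO and 75.4 ± 1.62 Mb in sgControl (SD, n = 2), and its part in the result was not tested. The call was not kept at equal covered length, where the difference was -10.3 points, or with only the upper 50% of domains by score, where it was -10.6. KCNH2, the cardiac hERG channel and the only other member on chromosome 7, was free of both marks.

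Among the 10 silent Kv subunits, KCNS2 and KCNV1 were called for H3K9me3. KCNS2, 5.90 kb long, had 100% H3K9me3 in both sgControl libraries and 0% in all 4 knockout libraries, also at equal covered length. KCNV1, 12.1 kb long, had 100% and 100% in sgControl, 0% and 0% in SKO, and 88.7% and 100% in DKO. KCNV1 therefore lost the mark in SKO and overlapped sgControl in DKO. Of the 4 silent subunits that could lose H3K9me3, 2 did in SKO and 1 in DKO, beside 24.3% and 23.0% of all genes.

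Inward rectifiers lost H3K9me3 at 3 of 4 members that could lose it, in SKO and in DKO. Of all genes that could lose it, 24.3% did in SKO and 23.0% in DKO, and the difference was not tested. KCNJ3, the GIRK1 subunit of G-protein-gated channels of heart and brain, had 68.1% and 84.0% in sgControl, 0.818% and 0% in SKO, and 30.1% and 0% in DKO. The difference was -75.6 points in SKO (SE 12.5, limma, adjusted p = 0.022), and the DKO call was not kept at equal covered length, where the difference was -40.7 points. KCNJ8, the Kir6.1 pore of vascular ATP-sensitive channels, went from 100% in both sgControl libraries to 0% in all knockout libraries. KCNJ16, a renal and glial subunit gene, went from 38.4% and 31.8% to 0% in all 4. Neither gene kept its call at equal covered length, where both groups were at 0%. The fourth gene, KCNJ6, has no call and is described above.

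Among the ion-activated channels KCNT2, the sodium-activated channel Slick, showed the widest loss. It spans 383 kb on the minus strand of chromosome 1 (196225779 to 196608440). H3K9me3 covered 85.6% and 76.2% in sgControl, 2.72% and 0% in SKO, and 4.39% and 4.18% in DKO. The differences were -79.6 and -76.6 points (SE 3.74 for both, limma, adjusted p = 0.00113 and 0.00132). At equal covered length they were -55.3 and -52.4 points and the calls were kept. What remained in the knockouts was a stretch in the first of 4 equal sections of the gene, and the other sections held 0% in all 4 libraries. H3K27me3 covered at least 95.4% of KCNT2 in every library.

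The leak channel gene KCNK2, which encodes the mechanosensitive channel TREK-1, had 100% and 96.5% H3K9me3 in sgControl, 41.3% and 32.5% in SKO, and 70.9% and 72.7% in DKO. It lost the mark in SKO by 61.4 points (SE 3.68, limma, adjusted p = 0.00211) and missed the threshold in DKO. The accessory subunit gene KCNMB2, which encodes a BK channel beta subunit, had 43.6% and 31.7%, then 2.34% and 5.19%, then 21.4% and 22.1%. Its SKO call stood nearest inside the threshold of 25 points and was not kept at equal covered length, where the difference was -9.29 points. KCNJ15 stood nearest outside it in SKO.

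The 5 members that gained H3K9me3 in a knockout were 2.91 to 77.4 kb long. KCNK5 and KCNK17 encode the alkali-activated leak channels TASK-2 and TALK-2 and lie 69.5 kb apart on chromosome 6. KCNK5 had 0% in both sgControl libraries, 43.0% and 68.7% in SKO, and 58.8% and 52.9% in DKO. KCNK17 had 0% and 5.31%, then 100% and 100%, then 100% and 74.1%. Both genes kept their calls at equal covered length, and no knockout library overlapped sgControl.

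KCNMB3, a BK beta subunit gene, had 0% in sgControl, 40.4% and 37.5% in SKO, and 32.2% and 38.0% in DKO, and was not called with the upper 50% of domains by score or, in DKO, at equal covered length. KCNJ15, an inward rectifier of kidney, had 40.9% and 15.1%, then 65.7% and 94.8%, then 93.6% and 91.7%, and was called in DKO only. The 2 libraries of sgControl and of SKO each spread by more than 25 points at this gene. KCNA5, the Kv1.5 channel of atrial muscle and macrophages, went from 0% in sgControl and SKO to 100% in both DKO libraries. That gain is 1 whole short gene of 2.91 kb, and its call was not kept among the upper 50% of domains by score, where the difference was 50.0 points.

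DKO and SKO were also compared with each other. DKO had less H3K9me3 on 1 of 22 members that could be lower, KCND2, and more on 5 of 81, namely KCNA1, KCNA5, KCNH7, KCNK2 and KCNV1. The background was 7.27% lower and 1.63% higher. KCNA1, the Kv1.1 channel of axons, had 0% in both SKO libraries and 100% and 65.3% in DKO, but its sgControl libraries stood at 5.94% and 100%. limma called 2 of the 52 varying members lower and 3 higher, beside 3.46% and 2.58% of all varying genes. KCNA1 and KCNH7 did not pass (adjusted p = 0.358 and 0.0615), and KCNA5, KCNK2 and KCNV1 did (adjusted p = 3.1e-05, 0.0256 and 0.00378).

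The next comparison asked where H3K27me3 lay in the knockouts. In SKO 7 of 38 members lost it and 2 of 58 gained it, beside 20.1% and 3.56% of all genes that could be called. In DKO 7 of 38 lost it and 3 of 58 gained it, beside 19.3% and 4.04%. The members' shares were near the background for both knockouts, which again share their controls. limma called 13 lost in each knockout, and 6 gained in SKO and 5 in DKO, of the 44 members that varied, beside 25.4% lost in each and 20.2% and 22.1% gained of all genes that varied. Between DKO and SKO, 1 of 36 members was lower, KCNF1, and 0 of 63 were higher, beside 2.38% and 0.828%. limma called 1 lower and 3 higher there, beside 3.07% and 5.04% of all varying genes. Without DKO replicate 1 the lower members were 3.

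**Figure D4:**
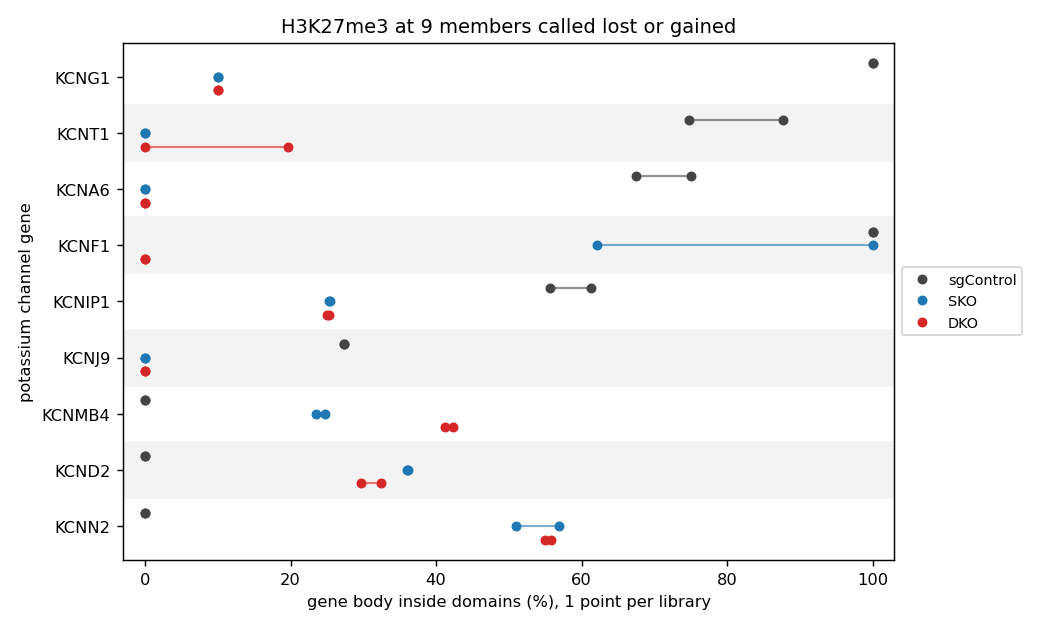
Percent of gene body inside H3K27me3 domains for the 9 potassium channel genes described in the text that were called lost or gained in SKO or DKO, with 1 point per library and a line joining the 2 libraries of a genotype. KCNG1, KCNT1 and KCNA6 stand high in sgControl and low in both knockouts, and KCND2, KCNN2 and KCNMB4 stand at 0 in sgControl and above 0 in both knockouts.

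H3K27me3 in SKO was lost from 3 of 15 Kv pore subunits that could lose it, from 1 of 4 silent subunits, 1 of 7 inward rectifiers, 1 of 3 ion-activated channels and 1 of 4 accessory subunits, and from 0 of 5 leak channels. Of all genes that could lose it in SKO, 20.1% did. KCNG1, a silent Kv2 partner, had 100% in both sgControl libraries and 10.0% in all 4 knockout libraries. KCNA6, the Kv1.6 channel, had 67.4% and 75.1% in sgControl and 0% in all 4. Both genes separated sgControl from both knockouts and kept their calls at equal covered length.

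KCNF1, a silent subunit gene of 2.29 kb, had 100% in both sgControl libraries, 100% and 62.2% in SKO, and 0% in both DKO libraries. It lost the mark in DKO (difference -100 points, SE 14.3, limma, adjusted p = 0.0101). Against SKO its difference was -81.1 points and did not pass limma (adjusted p = 0.0729).

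Outside the Kv families, KCNT1, the sodium-activated channel Slack, had 74.8% and 87.7% H3K27me3 in sgControl, 0% in both SKO libraries, and 19.7% and 0% in DKO. Its relative KCNT2 kept H3K27me3 and lost H3K9me3, while KCNT1 had no H3K9me3 in any library. KCNJ9, the GIRK3 subunit, had 27.3% in both sgControl libraries and 0% in all 4 knockout libraries. It stood nearest inside the threshold in both comparisons and was not called with the upper 50% of domains by score. Just outside it were KCNMB4 in SKO, with 0% in sgControl and 24.7% and 23.5% in SKO, and KCNK3 in DKO, with 31.6% and 23.8% in sgControl and 0% in DKO. For H3K9me3 in DKO, KCNJ16 stood nearest inside and KCNK18 nearest outside, with 0% and 17.9% in sgControl and 42.9% and 55.4% in DKO.

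H3K27me3 was gained on 3 neuronal genes that had none in sgControl. KCNN2, the small-conductance calcium-activated channel SK2, had 0% in sgControl, 51.0% and 56.8% in SKO, and 55.8% and 55.0% in DKO (limma SE 2.23, adjusted p = 0.000309 and 0.000278). KCND2 had 0% in sgControl, 36.2% and 36.0% in SKO, and 32.5% and 29.6% in DKO. KCNMB4, the neuronal BK beta subunit, had 41.2% and 42.4% in DKO, and at equal covered length its difference was 0. The knockout libraries did not overlap sgControl at these genes. At equal covered length KCNN2 differed by 38.3 points in DKO and kept its calls.

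**Figure D5:**
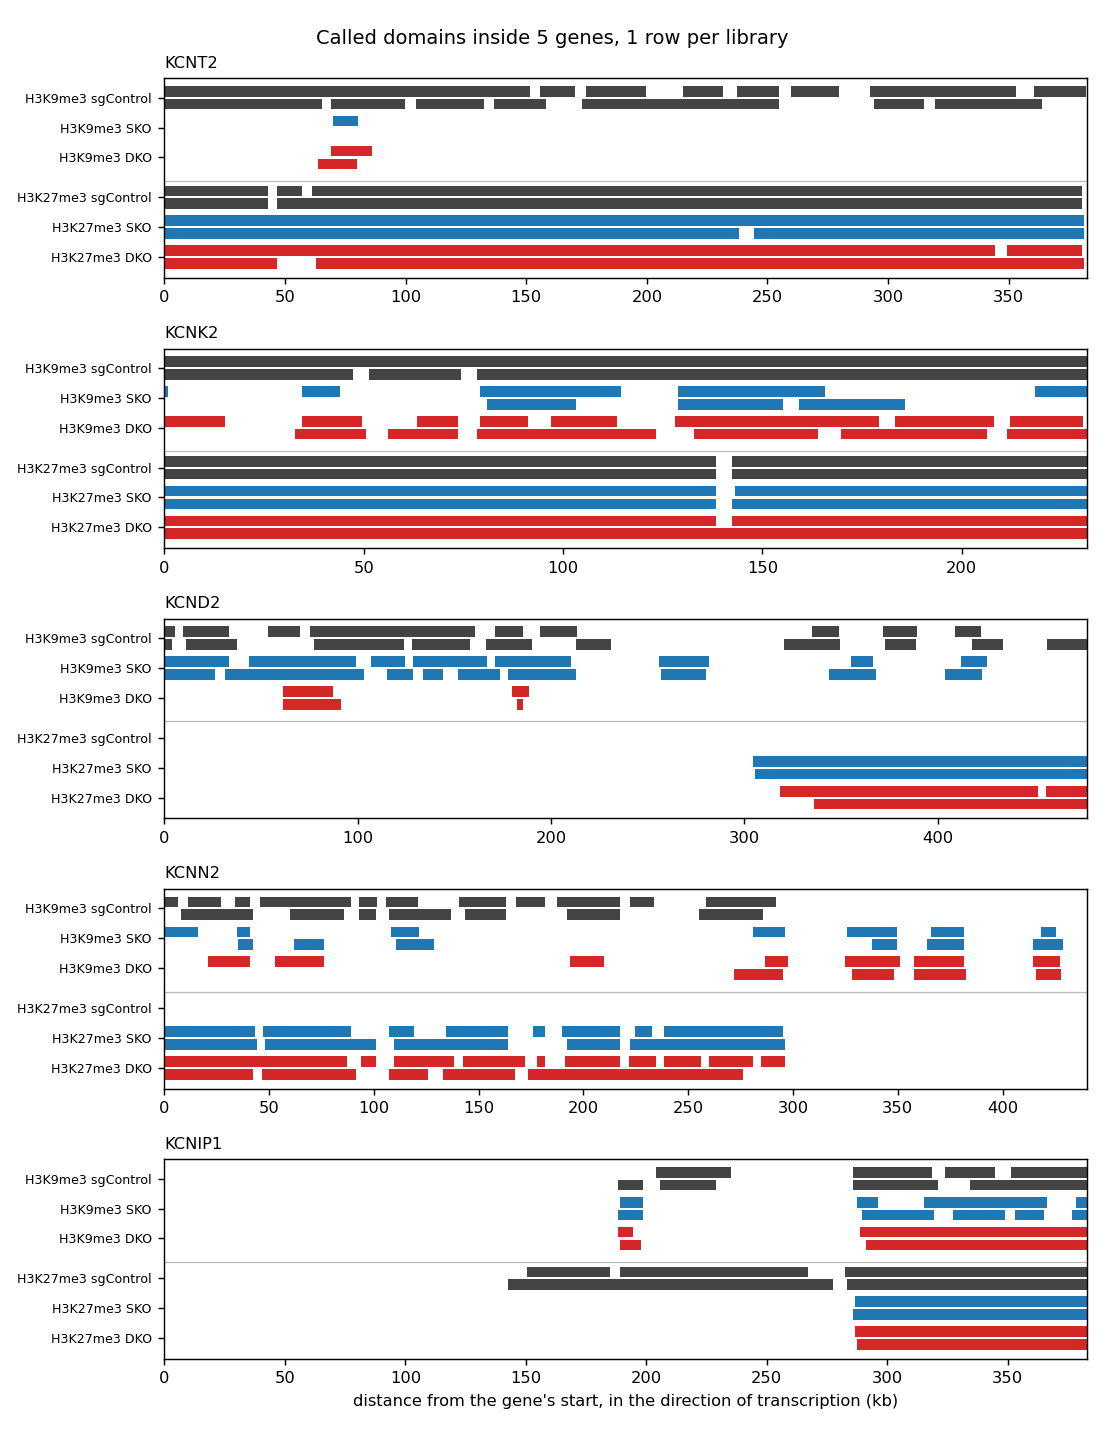
Called domains inside KCNT2, KCNK2, KCND2, KCNN2 and KCNIP1, drawn as bars against distance in kb from the start of the gene in the direction of transcription, with 1 row per library, H3K9me3 above the grey line and H3K27me3 below it. KCNT2 loses nearly all H3K9me3 under a standing H3K27me3 domain, KCND2 gains H3K27me3 toward its end and KCNN2 toward its start, and KCNIP1 keeps H3K27me3 toward its end in the knockouts.

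Within the long genes KCNN2, KCND2 and KCNIP1 the changes lay in some parts of the body and not in others. Each gene body was split into 4 equal sections along transcription. In KCNN2, H3K27me3 in the knockouts covered 79.7% to 88.4% of the first section, 65.6% to 87.7% of the next, 50.6% to 66.8% of the third and 0% of the last, where sgControl had 0% throughout. H3K9me3 in KCNN2 was 0% in the last section in sgControl and 38.5% to 52.3% there in the knockouts. In its first section H3K9me3 was 78.2% and 64.4% in sgControl and 0% to 39.2% in the knockouts. The last section of KCNN2 thus held H3K9me3 without H3K27me3 in the knockouts.

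In KCND2 the H3K27me3 gain lay in the other end. The last section was covered over 96.6% to 100% in the knockouts, the third over 18.6% to 44.7%, and the others over 0%. H3K9me3 of DKO remained at 21.4% and 24.8% in the first section and at 0% in the third and the last. KCNIP1, the gene of a Kv4 accessory protein, had 55.7% and 61.3% H3K27me3 in sgControl, 25.2% and 25.4% in SKO, and 25.2% and 25% in DKO. Its last section held 100% in all 6 libraries, and the third section went from 84.1% and 94.2% in sgControl to at most 1.72% in the knockouts. KCNMB1 lies inside KCNIP1 and was free of both marks, so reads over it count for both genes.

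Over the summed bodies of all members, 11.8 Mb, both marks together covered 30.8% in sgControl (3.63 Mb), 17.8% in SKO (2.1 Mb) and 21.3% in DKO (2.51 Mb). H3K27me3 without H3K9me3 covered 24.0%, 37.4% and 33.1%, and H3K9me3 alone 5.74%, 5.46% and 4.36%. The length with neither mark was 39.5%, 39.3% and 41.2%. The H3K9me3 lists of the knockouts were shorter over all autosomes, and their part in these values was not tested. No share over all genes or at equal covered length is set beside them. Of the 10 members that lost H3K9me3 in SKO, 8 held H3K27me3 over at least 75% in all 6 libraries of that mark, against 42.7% of all genes so called. In DKO it was 5 of 8, against 26.6%. The exceptions were KCNJ8 and KCNS2 in SKO, and KCNS2 had no H3K27me3 in any library.

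Some members share domains and are not separate observations. KCNK16 and KCNK17 lie 150 bp apart and shared 1 H3K27me3 domain in all 6 libraries and 1 H3K9me3 domain in 5. KCNA6, KCNA1 and KCNA5, neighbours on chromosome 12, lay in 1 H3K27me3 domain in both sgControl libraries and in no common domain in the knockouts. KCNA1 and KCNA5 still held 100% there, while KCNA6 was at 0%. KCNJ6 and KCNJ15 on chromosome 21 lay in 1 H3K9me3 domain in all 4 knockout libraries and in none of sgControl. KCNJ12 and KCNJ18 are near-identical copies, and their values, at 0 for H3K9me3 in all libraries, are uncertain.

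Promoters were read from RefSeq windows of 300 bases, 250 before the start and 50 from it on, in GRCh38.p14. An entry at the outer end of the gene was found for 62 of the 93 members. H3K27me3 domains of both sgControl libraries held 23 member promoters (37.1%) against 13.3% of the 13150 promoters of all genes. In SKO it was 21 and in DKO 19. H3K9me3 domains held 11 in sgControl, 5 in SKO and 8 in DKO (17.7%, 8.06% and 12.9%), against 11.6%, 11% and 11% of all promoters, and 10 in SKO without replicate 2.

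These 5 promoters are examples from those whose mark changed in every library of a knockout. They are written from 5′ to 3′ with CG dinucleotides, the CpG sites where DNA can be methylated, in capitals. KCNJ8 (chr12:21774657-21774956, minus strand) and KCNT2 (chr1:196608391-196608690, minus strand) lay in H3K9me3 domains in both sgControl libraries and in none of the 4 knockout libraries. KCNA5 (chr12:5043629-5043928, plus strand) lay in an H3K9me3 domain in both DKO libraries alone. KCNA6 (chr12:4809084-4809383, plus strand) and KCNT1 (chr9:135701935-135702234, plus strand) lay in H3K27me3 domains in both sgControl libraries alone.
KCNJ8: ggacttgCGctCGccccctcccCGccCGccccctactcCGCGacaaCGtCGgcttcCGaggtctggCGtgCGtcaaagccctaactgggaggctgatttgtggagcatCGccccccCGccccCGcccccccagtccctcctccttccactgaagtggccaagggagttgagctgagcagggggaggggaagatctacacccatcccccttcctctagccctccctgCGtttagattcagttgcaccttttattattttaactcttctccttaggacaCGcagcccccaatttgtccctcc
KCNT2: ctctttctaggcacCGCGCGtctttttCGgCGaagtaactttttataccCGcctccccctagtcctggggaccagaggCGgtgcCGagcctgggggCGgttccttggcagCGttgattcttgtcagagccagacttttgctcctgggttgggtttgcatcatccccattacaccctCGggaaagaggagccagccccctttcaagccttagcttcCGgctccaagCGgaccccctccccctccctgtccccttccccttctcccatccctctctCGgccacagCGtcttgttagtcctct
KCNA5: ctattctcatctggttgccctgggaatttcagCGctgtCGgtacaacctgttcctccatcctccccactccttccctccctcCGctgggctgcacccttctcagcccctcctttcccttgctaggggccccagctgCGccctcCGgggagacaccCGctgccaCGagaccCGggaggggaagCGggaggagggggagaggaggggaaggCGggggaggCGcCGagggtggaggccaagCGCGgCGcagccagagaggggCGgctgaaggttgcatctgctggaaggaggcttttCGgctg
KCNA6: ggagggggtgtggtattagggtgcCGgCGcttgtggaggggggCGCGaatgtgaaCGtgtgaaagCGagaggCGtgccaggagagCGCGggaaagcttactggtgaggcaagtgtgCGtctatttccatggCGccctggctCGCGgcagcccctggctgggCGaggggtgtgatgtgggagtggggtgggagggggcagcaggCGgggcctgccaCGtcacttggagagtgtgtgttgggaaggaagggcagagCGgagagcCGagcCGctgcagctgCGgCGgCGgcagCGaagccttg
KCNT1: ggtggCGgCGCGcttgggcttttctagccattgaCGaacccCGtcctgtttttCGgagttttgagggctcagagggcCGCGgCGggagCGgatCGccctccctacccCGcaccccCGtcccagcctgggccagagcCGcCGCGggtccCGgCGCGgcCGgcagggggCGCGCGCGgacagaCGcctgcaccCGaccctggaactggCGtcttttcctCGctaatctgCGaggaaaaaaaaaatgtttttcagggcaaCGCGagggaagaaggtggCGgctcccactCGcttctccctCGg

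The printed promoters held 16, 15, 17, 23 and 34 CpGs in that order. The median was 19 over all 62 member promoters and 22 over the 13150. Inside H3K27me3 domains of sgControl, member promoters had a median of 22 and 52.2% had at least 20, while all promoters there had a median of 7 and 30.3% had at least 20. At least 20 CpGs were present in 48.4% of member promoters and 56.9% of all. KCNC2 and KCNIP4 lost H3K9me3 at the promoter in the same way as KCNJ8 and KCNT2, while their gene bodies were not called. The KCNE1 promoter changed as that of KCNA5 did, and the KCNK3 promoter as that of KCNA6, also without a call of the gene body.

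SETDB1 peaks in wild-type cells were an independent readout. A peak within the gene body or 2 kb on either side was present in both libraries at 23 of 93 members (24.7%, all genes 21.0%). The count was 12 with the upper 50% of peaks by score and 40 with a peak in either library. None of the 18 members up to 10 kb had one, and of those over 200 kb 7 of 19 did (36.8%, all genes 56.6%). KCNQ1, an imprinted Kv channel gene of heart and ear, had 25 peaks in either library, and the next highest member in replicate 1, KCNG2, had 6. Of its 25 peaks in replicate 1, 19 touched H3K9me3 present in both sgControl libraries, 22 in SKO and 23 in DKO. H3K9me3 covered 19.4% and 22% of KCNQ1 in sgControl and 25.9% to 37.6% in the knockouts, without a call.

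SETDB1 peaks were set beside the H3K9me3 calls. In SKO the peaks were present at 3 of 3 members that gained the mark (KCNK17, KCNK5 and KCNMB3) and at 1 of 10 that lost it (KCNH8). In DKO they were present at 4 of 5 that gained and 2 of 8 that lost. Of all genes called, 53.9% of those that gained and 19.5% of those that lost in SKO had a peak, and 51.6% and 26.5% in DKO. The difference between the shares at gained and at lost genes was not tested. All 5 KCNK17 peaks of replicate 1 touched H3K9me3 shared by both SKO libraries and H3K9me3 shared by both DKO libraries, and none touched H3K9me3 present in both sgControl libraries. The 1 peak of replicate 2 did likewise. At KCNK5, 1 of 3 peaks of replicate 1 and 0 of 5 of replicate 2 touched H3K9me3 of both SKO libraries. In DKO it was 2 of 3 and 4 of 5. At KCNMB3 it was 2 of 3 and 1 of 1 in either knockout. At KCNJ15 in DKO it was 5 of 5 and 4 of 4, with 3 and 2 already in sgControl.

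Genes of proteins that work with potassium channels, a list of 15 outside the naming rule, changed at several places. In SKO 4 of 6 that could lose H3K9me3 did so and 1 of 11 gained it, and in DKO 2 of 6 lost it and 0 gained it. Of all genes that could be called, 24.3% lost and 4.77% gained in SKO, and 23.0% and 4.35% in DKO. ABCC9 encodes SUR2, the regulatory partner of the KCNJ8 channel, and had 63.2% and 73.3% in sgControl and 0% in all 4 knockout libraries. Shared domains are given above for pairs of members only, so ABCC9 and KCNJ8 may not be separate observations. DPP10, a Kv4 partner, had 87.2% and 86.5%, then 39.8% and 36.9%, then 62.1% and 57.8%. DPP6, its relative, gained the mark in SKO, from 37.2% and 27.6% to 68.5% and 67.0%. None of the 15 was called for H3K27me3. Of the 21 KCTD genes, which share a channel-like domain but form no pore, KCTD1 and KCTD3 lost H3K9me3 in both knockouts (2 of 4) and KCTD21 gained it in SKO (1 of 20), to be read against the same shares of all genes.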

How the data were processed

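Drosophila chromatin was added to each immunoprecipitation as a spike-in, per the labels' protocols. The submitters' processing notes name hg38, SICER, deepTools 3.5.6, Trim Galore 0.6.10 and FastQC 0.12.1. The sources used here give no aligner and do not say how reads matching several places were treated. The deposited domain lists give a read count and a score per domain for each library, with no spike-in factor. The deposited SETDB1 peak lists give a score, a fold ratio and a −log10 p-value per peak. The 4 input samples were not analysed here.

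Percent of gene body was computed from 12 domain lists over the autosomal genes with Python 3.11.15, pandas 2.3.3 and numpy 2.4.6. limma 3.58.1 was fitted per mark over all 6 libraries and all genes that varied, with Benjamini-Hochberg adjustment. Background percentages are over the genes that could be called: at least 25% covered in both reference libraries for a loss, at most 75% for a gain. The steps were tested on simulated data. The alternatives were a list cut to equal length, the upper 50% of domains by score, thresholds of 10 and 50 points, limma with and without a replicate block, each library left out and chromosome 7 left out. Named genes were all members called against sgControl or between the knockouts, the constantly covered, the longest and shortest, and those nearest the threshold, apart from a few called genes that are counted but not reported here by name. The members, lists and tests were chosen with earlier results of these data known.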

Additional observations from a re-analysis of the deposited data

Results flagged for a closer look

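DKO and SKO differed in H3K9me3 at 6 potassium channel genes, as the difference of DKO from SKO in percentage points. KCNA5 differed by 100, KCNV1 by 94.4, KCNA1 by 82.7, KCNH7 by 35.1 and KCNK2 by 34.9. KCND2 differed by -43.2, and its SKO and DKO libraries lay on opposite sides of sgControl, with SKO above and DKO below. For H3K27me3, KCNF1 differed by -81.1. Of these genes, KCNA1, KCNH7 and KCNF1 did not pass limma for DKO against SKO (adjusted p = 0.358, 0.0615 and 0.0729).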

How the results depend on the processing

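No call of a named member reversed in an alternative, with 446 results on the same side of the threshold and 46 no longer past it. The difference went to 0, with no direction, for KCNJ8 (equal covered length), KCNJ9 (upper 50% of domains), and KCNJ16, KCNMB3 and KCNMB4 (under one or both of these). For each change named here the cause was not tested unless the setting itself lowers or raises the threshold. The counts below are of potassium channel genes lost and gained. No shares over all genes stand beside them here, so they are not compared with a background.

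At 10 points, H3K9me3 in SKO gave 17 lost and 7 gained, and DKO against SKO 3 lost. H3K27me3 gave 5 gained in SKO, 11 lost and 5 gained in DKO, and 2 gained in DKO against SKO. At 50 points, H3K9me3 gave 1 gained in SKO, 3 lost in DKO, and 0 lost and 3 gained in DKO against SKO, and H3K27me3 gave 4 lost and 1 gained in each knockout. At equal covered length, H3K9me3 gave 6 gained in SKO, 4 lost in DKO and 2 lost in DKO against SKO. The mean H3K9me3 over members was then 19.2% in sgControl, 19.6% in SKO and 23.0% in DKO, so the lower mean in SKO was not kept, and mean H3K27me3 was 32.8% in SKO and 30.7% in DKO with rank correlations with length of 0.277 and 0.372. For the upper 50% of domains ranked by score, DKO against SKO gave 0 lost and 1 gained for H3K9me3 and 3 lost for H3K27me3, and SKO gave 6 gained for H3K27me3. Means were then 21.3%, 15.8% and 19.4% for H3K9me3 and 34.9%, 33.9% and 30.9% for H3K27me3 in sgControl, SKO and DKO, with rank correlations of 0.443 (SKO) and 0.327 (DKO) for H3K9me3 and 0.231, 0.256 and 0.373 for H3K27me3. Without chromosome 7, DKO against SKO lost H3K9me3 on 0 members and SKO gained H3K27me3 on 1.

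With limma, H3K9me3 gave 17 lost and 5 gained in SKO, 13 lost in DKO, and 2 lost and 3 gained in DKO against SKO. H3K27me3 gave 13 lost and 6 gained in SKO, 13 lost and 5 gained in DKO, and 3 gained in DKO against SKO. With a replicate block in limma, H3K9me3 gave 3 gained in DKO and 2 lost and 2 gained in DKO against SKO, and H3K27me3 gave 13 lost and 4 gained in SKO, 13 lost in DKO and 1 gained in DKO against SKO. The block ended the H3K9me3 calls of KCNJ3 and KCNK5 in both knockouts and KCNJ15 in DKO. The libraries share only a number: deviations of same-numbered libraries correlated between -0.0147 and 0.0586.

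Leaving out each library in turn gave 4 to 5 H3K9me3 gains in SKO, 5 to 8 in DKO and 1 to 2 losses in DKO against SKO, and 1 to 3 H3K27me3 losses in DKO against SKO. The rank correlation with length ranged from 0.553 to 0.570 for H3K9me3 in SKO, from 0.307 to 0.322 for H3K27me3 in SKO and from 0.374 to 0.385 in DKO, and promoters in H3K9me3 in SKO from 6 to 10. SETDB1 peaks lay at 12 members with the upper 50% of peaks by score and at 40 with a peak in either library. Domain lists give no depth outside domains, so a mark below the caller's threshold was not detectable.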

Other observations

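Other ion channel families of these cells carried the marks as well. Domains shared within these families are not given here, so neighbouring genes among them may not be separate observations. No result at equal covered length is given for them. Voltage-gated sodium channel genes lost H3K9me3 at 5 of 8 genes that could lose it in SKO and at 4 of 8 in DKO, beside 24.3% and 23.0% of all genes. SCN2A, a sodium channel gene of brain neurons, had 87.4% and 92.8% in sgControl, 13.1% and 0% in SKO, and 21.8% and 7.85% in DKO. SCN3A had 95.9% and 62.5%, then 0% and 0%, then 26.8% and 22% in turn. Over the 14 sodium channel genes the mean was 51.1% ± 0.856 in sgControl, 23.2% ± 3.19 in SKO and 29.6% ± 0.621 in DKO (SD, n = 2), against 17.1%, 16.5% and 16.5% over all genes.

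Calcium channel genes lost H3K27me3 at 4 of 14 genes in each knockout, among them CACNA1B, CACNA1D and CACNG8 in both, beside 20.1% of all genes in SKO and 19.3% in DKO. TRP channel genes gained H3K27me3 at 5 of 21 in SKO and at 3 of 21 in DKO, with TRPA1 and TRPM6 among them in both, beside 3.56% and 4.04% of all genes. The 9 HCN and CNG genes, cation channels gated by cyclic nucleotides, had no call for either mark in either knockout.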
